A study of Mus musculus with 12 samples.

Results

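H3K27ac was compared at 10 genes along the route of glucose carbon in the CM, from entry into the cell to entry into mitochondria. They were chosen by role: the glucose transporters Slc2a1 and Slc2a4, the hexokinases Hk1 and Hk2, the muscle phosphofructokinase Pfkm, the lactate dehydrogenase subunit Ldhb, the pyruvate dehydrogenase kinases Pdk2 and Pdk4, and the mitochondrial pyruvate carrier subunits Mpc1 and Mpc2. Earlier results of these data were known when the genes were chosen. For each gene, H3K27ac-enriched regions that overlapped the gene body extended by 5 kb on each side were taken. These windows held 31 of the 53754 regions listed in control CMs and 34 of the 45521 listed in RIP140-null CMs, and all 10 genes had regions in both lists.

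H3K27ac, an acetyl mark on histone H3, was profiled by CUT&RUN, in which an antibody directs a nuclease to chromatin and the released DNA is sequenced. RIP140, encoded by Nrip1, is a nuclear receptor corepressor. RIP140-null CMs came from csNrip1-/- mice (Nrip1 f/f Cre+, with Cre under the Nkx2.5 promoter, which is active from the embryonic heart onward), and control CMs came from Cre-negative littermates (Nrip1 f/f Cre-), so that both genotypes carried the floxed allele. All mice were male and 10 to 12 weeks old, and the labels name no treatment. Each experiment used 200000 CMs, and each genotype had 3 replicates with H3K27ac antibody and 3 with IgG, but it was not stated whether a biological replicate was 1 mouse. The files hold 1 list of region positions per genotype, made of regions found in at least 2 of 3 replicates. They hold neither a signal for each region nor values of single replicates. The depth is therefore unknown, the error between replicates could not be given, and no difference below was tested.

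The adult heart runs mainly on fatty acids and shifts toward glucose when it hypertrophies or fails. Glucose enters CMs through GLUT1 (Slc2a1), which acts at all times, and GLUT4 (Slc2a4), which insulin and contraction bring to the cell surface, and is then trapped by hexokinase and committed to glycolysis by phosphofructokinase. Pyruvate is carried into mitochondria by a heterodimer of MPC1 and MPC2 and oxidized by pyruvate dehydrogenase, which the PDKs switch off.

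At the 10 genes, regions listed in 1 genotype lay inside or downstream of the genes, and none lay over one of their promoters. A promoter (1000 bp upstream to 100 bp downstream of a transcript start) was covered in both lists at 10 of 10 genes, where 1 covered promoter sufficed. At Slc2a1, Slc2a4, Pfkm and Pdk4 all promoters were covered, but at Hk1 only 3 of 12 and at Pdk2 3 of 5. Every promoter with a region in 1 list had one in the other, so these statements are not independent. No share over all genes or all regions of 1 list stands beside them. Regions that shared no base with the control list, here called KO-only, lay at 5 genes: Slc2a4, Hk1, Pfkm, Pdk4 and Mpc2. Over the annotation, 29.4% of the 24748 genes with a region had a KO-only region. Regions that shared no base with the list of RIP140-null CMs, here called control-only, lay at 2 genes, Hk2 and Ldhb, whereas 35.3% of genes with a region had one. Among protein-coding genes with a region, which the 10 genes are, 35.2% had a KO-only and 39.2% a control-only region. Counted as regions, 6 of 34 were KO-only (17.6%, 95% Wilson interval 8.35% to 33.5%), beside 21.5% of the whole list, and 2 of 31 were control-only (6.45%, 1.79% to 20.7%), beside 29.5% of the whole list. The whole lists also hold regions outside gene windows. Within the windows of all genes with a region, 10715 of 55500 regions were KO-only and 15599 of 62639 were control-only. These counts take a region once for each window it overlaps. The intervals cover counting error only, and neighboring regions are not independent. Regions at the 10 genes were wide, with medians of 3148 bp in control and 3358.5 bp in RIP140-null CMs against 1846 and 2291 bp over the lists, and control-only regions were narrow over the whole list, with a median of 1045 bp. The part of width in these shares was not tested.

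**Figure D1:**
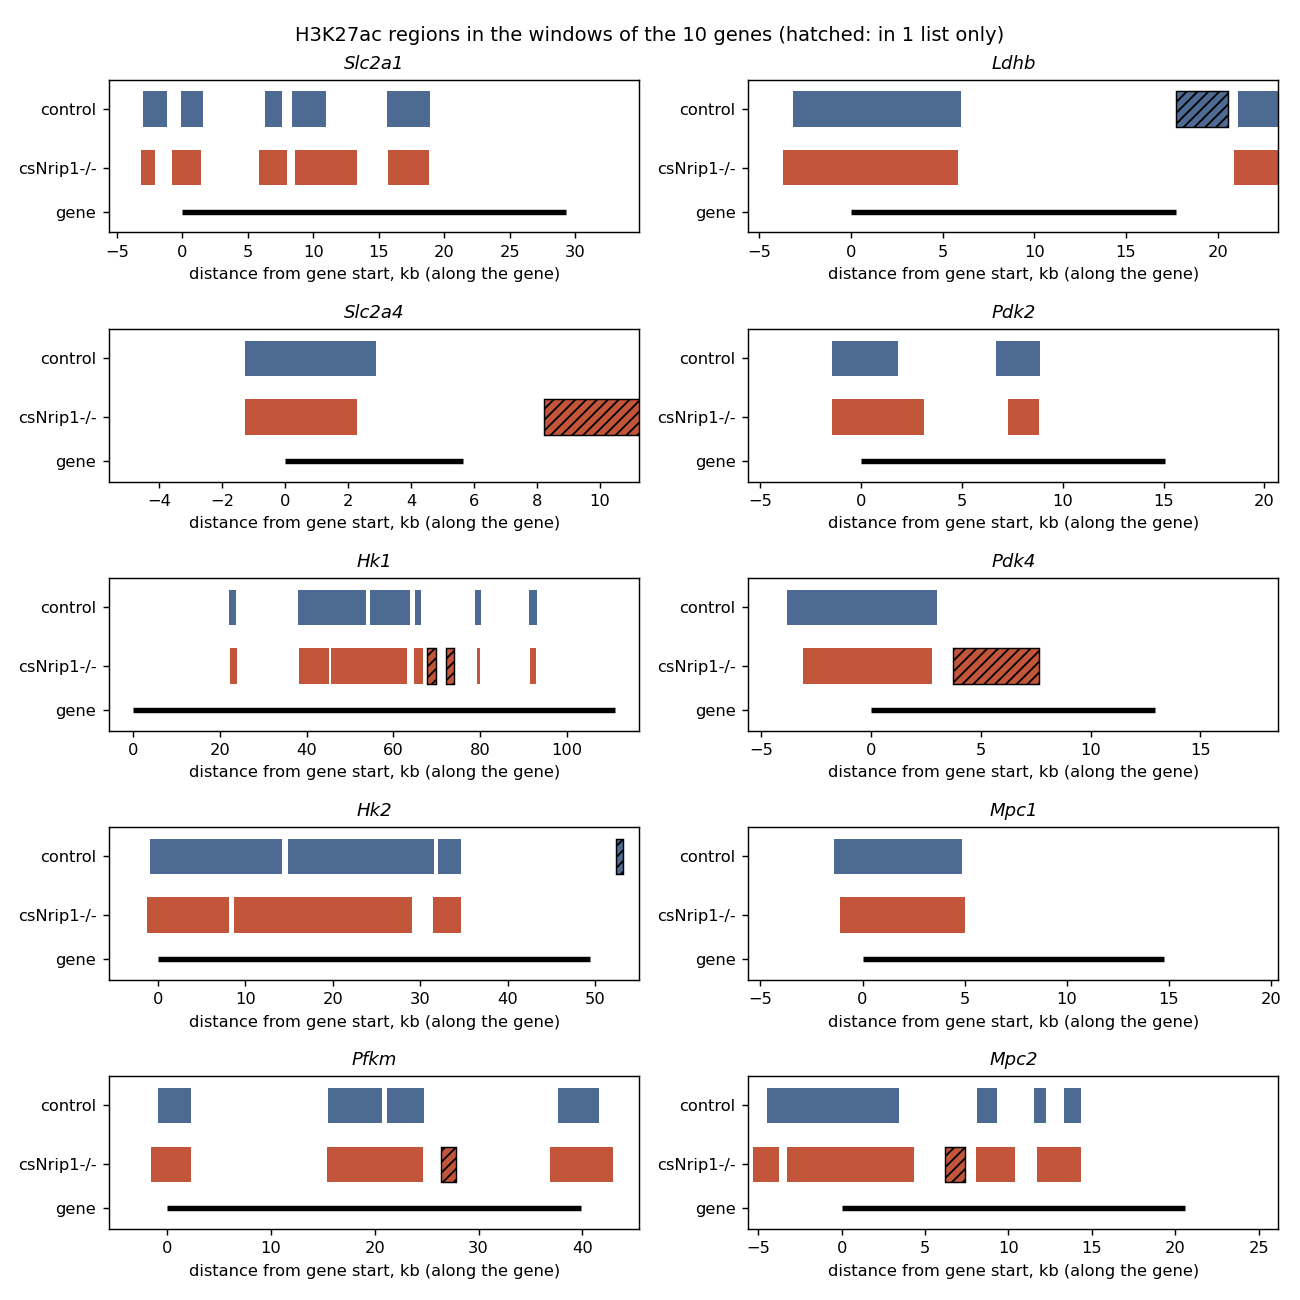
Position of H3K27ac regions at each gene, in kb from the gene start along the gene (blue, control CMs; red, csNrip1-/- CMs; black bar, gene body; regions that run past a panel are drawn to its edge). Hatched boxes are the 6 KO-only regions, at Slc2a4, Hk1, Pfkm, Pdk4 and Mpc2, and the 2 control-only regions, at Hk2 and Ldhb.

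The length of the windows covered by regions summed to 140539 bp in control and 155005 bp in RIP140-null CMs, of 416371 bp. It was longer in RIP140-null CMs at 7 of 10 genes, as at 57.1% of the 21026 genes covered in both lists. The median log2 ratio of covered length, RIP140-null over control, was 0.23 over the 10 genes and 0.07 over all genes covered in both. In covered length, 0 of the 10 genes were at least 1.5-fold longer in RIP140-null CMs (16.3% of all genes) and 0 were at least 1.5-fold shorter (10.2%). The first of these counts was 2 in gene bodies alone (Pdk4 and Mpc2), 1 with 20 kb on each side and 1 without clipping to the window (Slc2a4), and 3 by nearest start (Hk1, Hk2 and Mpc2). Shares over all genes under these alternatives were not set beside them. The 1.5-fold limit is the one the study set for tag counts in regions, which are a different quantity and are not in the lists. In these windows, the highest ratios were those of Slc2a4 and Pdk4, with log2 values of 0.52 each, followed by Mpc2 at 0.48 and Pfkm at 0.37, and the lowest was that of Ldhb at -0.25. Other windows gave another order. The share of genes longer in RIP140-null CMs was thus near the background, and the members' ratios fell within the bulk of all genes, between the 22.8th percentile of Ldhb and the 81.5th of Slc2a4.

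**Figure D2:**
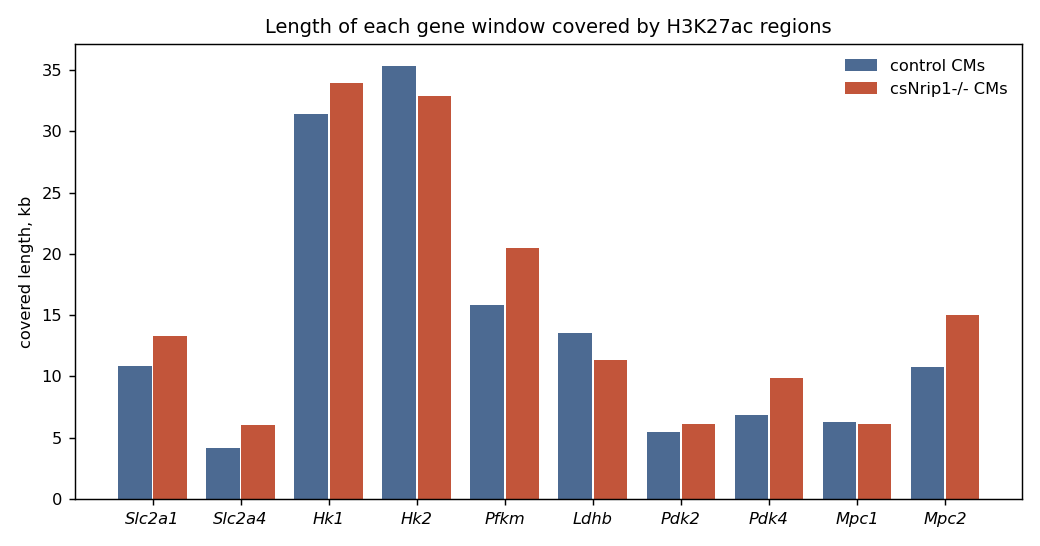
Length of each gene window covered by H3K27ac regions, in kb, in control CMs (blue) and csNrip1-/- CMs (red); each bar is 1 list, with no replicate error. Bars are higher in red at 7 genes, and Hk2, Ldhb and Mpc1 are the exceptions.

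**Figure D3:**
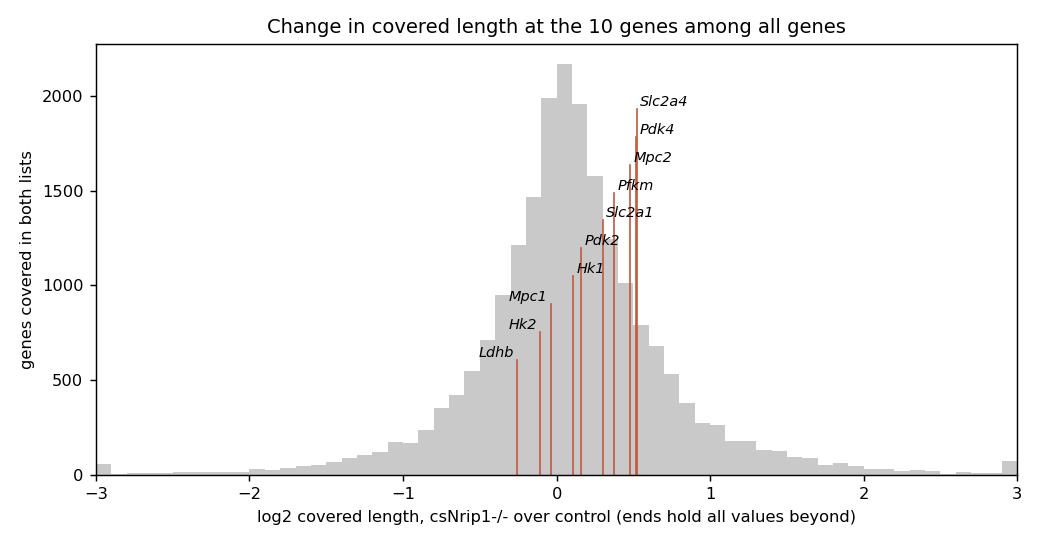
Number of genes by log2 ratio of covered length (csNrip1-/- over control, bins of 0.1) for the 21026 genes covered in both lists, in gray, with the 10 genes as red lines whose height has no meaning. With windows of 5 kb on each side and clipped regions, all 10 lie inside 1.5-fold, from -0.25 for Ldhb to 0.52 for Slc2a4.

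With overlap of at least 1 bp as the rule, the summed excess in RIP140-null CMs came mostly from KO-only regions. These added 12733 bp to the windows, and control-only regions accounted for 3685 bp in the other direction. In regions found in both lists, the windows held 136854 bp in control and 142272 bp in RIP140-null CMs. With those shared regions alone, 5 genes were longer and 5 were shorter in RIP140-null CMs, and the median log2 ratio was 0.02. At Slc2a4, Hk1 and Pdk4, the sign of the difference depended on this: shared regions were shorter in RIP140-null CMs by 614, 1253 and 963 bp, and the windows as a whole were longer by 1821, 2494 and 2966 bp. At Ldhb, shared regions were 648 bp longer in RIP140-null CMs and the whole window was shorter by 2194 bp. At Slc2a1, Pfkm, Pdk2 and Mpc2, most or all of the excess lay in shared regions (2503 of 2503, 3271 of 4678, 645 of 645 and 3005 of 4220 bp). The split into shared regions and regions of 1 list was made after seeing the data. It depends on the overlap rule. With gaps of up to 1000 bp counted as shared, the regions of Pdk4 (3929 bp), Mpc2 (1215 bp) and Ldhb (2842 bp) would become shared. The split was not computed under that rule.

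**Figure D4:**
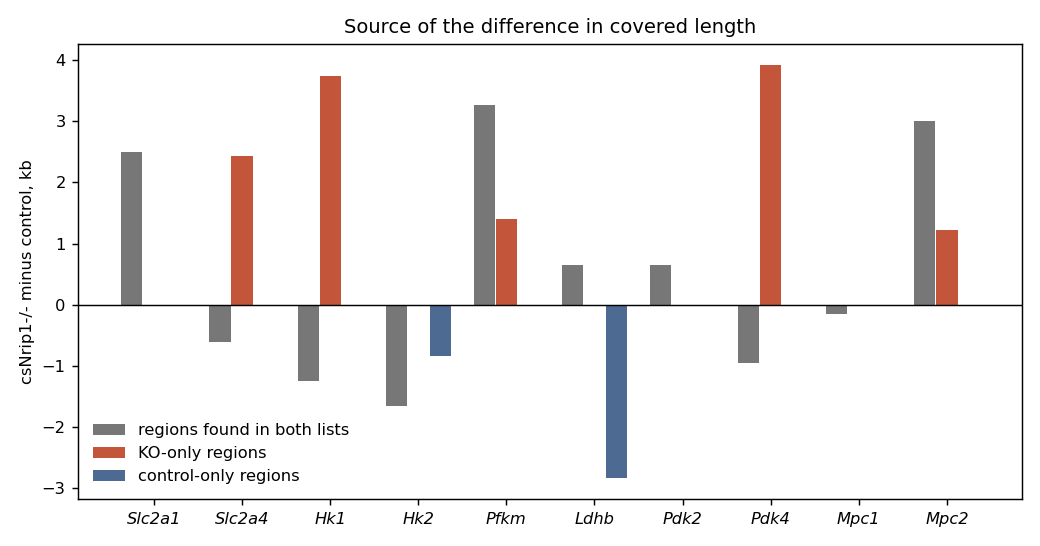
Difference in covered length, csNrip1-/- minus control, in kb per gene, split into regions found in both lists (gray), KO-only regions (red) and control-only regions (blue, negative). At Slc2a4, Hk1 and Pdk4 the gray bars are negative and the red bars outweigh them.

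Of the glucose transporters, Slc2a1 (chr4:119108711-119137983, plus strand, ENSMUSG00000028645) had 5 regions in each list, and each one had a partner in the other. Its window was covered over 10817 bp in control and 13320 bp in RIP140-null CMs. The promoter of the first start was covered over 241 of 1101 bp in control and 881 bp in RIP140-null CMs, because the region over it began 140 bp upstream of the gene start in the former and 780 bp upstream in the latter. Inside the gene, a region whose control version reached from 8334 to 10970 bp into the gene reached 13361 bp in RIP140-null CMs, and the lengths were 2637 and 4728 bp. The region before it measured 1325 and 2193 bp. The upstream region went the other way, with 1847 bp in control and 1030 bp in RIP140-null CMs. Slc2a1 thus held 2 of the 4 loci at least 1.5-fold longer in RIP140-null CMs and 1 of the 2 at least 1.5-fold shorter, among the 24 loci of the 10 genes found in both lists. The share of such loci over the whole lists was not computed. With regions assigned to the gene of the nearest start instead of to windows, the log2 ratio of Slc2a1 turned from 0.30 to -0.47.

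At Slc2a4 (chr11:69942539-69948188, minus strand, ENSMUSG00000018566), the promoter region measured 4183 bp in control and 3569 bp in RIP140-null CMs, and both ran from about the same point upstream (1289 and 1284 bp before the gene start) into the gene. RIP140-null CMs alone had a region downstream, chr11:69936063-69939973, of which 2435 bp fell in the window. This region, 3911 bp wide, lay 1548 bp from the nearest control region and covered a start of the neighboring gene Ybx2, so it cannot be told from position which gene it belongs to. Without it, by gene body alone or by nearest start, the log2 ratio of Slc2a4 was -0.34 or -0.23, and with 20 kb on each side or with the region not clipped it was 0.81 or 0.84, past 1.5-fold. It was merged from 5 single-replicate peaks, the most of the 6 KO-only regions, where 87.8% of all KO-only regions had the minimum of 2. A region made of 2 peaks was found in exactly 2 of 3 replicates, and with 3 or more the number of replicates cannot be read. The shared promoter region holds a match to the consensus of MEF2, a muscle transcription factor, 404 bp upstream of the gene start, and a match to the consensus of the estrogen-related receptors (ERRs), TCAAGGTCA, in an intron. Both are shown 5′ to 3′ on the gene's strand (GRCm38) with the match in capitals, since they are the closest such matches to a start at this gene that lay in regions of both lists.
Slc2a4, chr11:69948537-69948646, minus strand: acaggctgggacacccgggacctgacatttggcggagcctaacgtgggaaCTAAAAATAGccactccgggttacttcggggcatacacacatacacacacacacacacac
Slc2a4, chr11:69946894-69947002, minus strand: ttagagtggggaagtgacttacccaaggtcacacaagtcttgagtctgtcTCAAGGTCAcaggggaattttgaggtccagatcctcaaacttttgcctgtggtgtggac

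The hexokinase genes carried the longest cover. Hk2 (chr6:82725025-82774454, minus strand, ENSMUSG00000000628), the insulin-responsive form of muscle, was covered over 35358 bp in control and 32849 bp in RIP140-null CMs, 59.5% and 55.3% of its window. Most of this was an almost unbroken stretch from the promoter into the gene, made of 3 regions in each list and 34515 bp against 32849 bp. The breaks differed: the widest region was 16741 bp in control and 20357 bp in RIP140-null CMs, where it ranked 326th of the list. The region over the promoter measured 15126 bp in control and 9353 bp in RIP140-null CMs. The control-only region, chr6:82721280-82722122, was 843 bp wide, lay beyond the end of the gene and 17686 bp from any region of RIP140-null CMs, and was found in exactly 2 of 3 control replicates. It is the narrowest of the 8 regions of 1 list. By nearest start, where a wide region goes as a whole to 1 gene and the start of Gm17034 lies within this stretch, the log2 ratio of Hk2 turned from -0.11 to 1.84.

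Hk1 (chr10:62268855-62379908, minus strand, ENSMUSG00000037012), the broadly expressed form, had no cover over the promoter of its most upstream start in either list. An internal promoter, 1 of 2 for this gene in RefSeq (chr10:62340372-62340671, GRCm38.p6), was covered over all its 300 bp in both. The region over this promoter measured 15841 bp in control and 6770 bp in RIP140-null CMs, and the next one into the gene measured 9125 and 17567 bp. Both together made 24966 and 24337 bp. Further into the gene came 2 KO-only regions, chr10:62310217-62312175 and chr10:62305992-62307779, 1959 and 1788 bp wide. They lay 1308 and 4916 bp from the nearest control region, and both were found in exactly 2 of 3 replicates. Toward the end of the gene, a region of 1374 bp in control CMs measured 691 bp in RIP140-null CMs, the lowest ratio among the 24 loci (log2 -0.99). The KO-only region of 1959 bp holds an ERR match, which is the sole ERR match in any of the 8 regions of 1 list and is shown for that reason, and a match to the FOXO consensus GTAAACA. The ERR match lies in sequence that the reference masks as a repeat. In the central 1959 bp of regions of RIP140-null CMs at least that wide, 6.25% held an ERR match and 26.5% a FOXO match.
Hk1, chr10:62310687-62310795, minus strand: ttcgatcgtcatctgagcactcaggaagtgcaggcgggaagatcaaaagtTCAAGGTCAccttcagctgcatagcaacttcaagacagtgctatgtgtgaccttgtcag

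Pfkm (chr15:98092589-98132451, plus strand, ENSMUSG00000033065) encodes the phosphofructokinase subunit of muscle, the committing enzyme of glycolysis. Its window was covered over 15789 bp in control and 20467 bp in RIP140-null CMs, the largest difference of the 10 genes in bp (4678). The first promoter faces the start of Senp1, and its region (3148 and 3772 bp) covers both genes' starts. Over the internal starts, 2 control regions of 5181 and 3527 bp corresponded to a single region of 9261 bp in RIP140-null CMs. The KO-only region, chr15:98118987-98120393, was 1407 bp wide, lay inside the gene 1661 bp from the nearest control region and was merged from 3 single-replicate peaks. It includes a coding exon that holds the E-box CACGTG, shown here as the sole match of this region. An E-box was present in the central 1407 bp of 18.6% of regions of RIP140-null CMs at least that wide.
Pfkm, chr15:98119387-98119492, plus strand: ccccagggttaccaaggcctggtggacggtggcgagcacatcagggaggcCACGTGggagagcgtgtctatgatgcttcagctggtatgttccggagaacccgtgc
At the end of the gene, a region measured 3933 bp in control and 6027 bp in RIP140-null CMs, where it reached into the neighboring gene Asb8.

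Ldhb (chr6:142490249-142507957, minus strand, ENSMUSG00000030246) encodes the heart subunit of lactate dehydrogenase, which interconverts lactate and pyruvate. A wide region over its start measured 9141 bp in control and 9532 bp in RIP140-null CMs. The control-only region, chr6:142487379-142490220, was 2842 bp wide, began at the end of the gene and was found in exactly 2 of 3 control replicates. It lay 299 bp from a shared region further downstream (3794 and 3897 bp), so that the cover missing at Ldhb in RIP140-null CMs was a single stretch next to one present in both genotypes. Of all control-only regions, 12.3% lay within 1000 bp of a region of the other list.

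The kinases of pyruvate dehydrogenase both had more cover in RIP140-null CMs. Pdk4 (chr6:5483351-5496309, minus strand, ENSMUSG00000019577), induced by fasting and fatty acids and a known target of ERRs, PPARs and FOXO factors in muscle, had 1 region in control CMs and 2 in RIP140-null CMs. The promoter region was 6863 bp in control and 5900 bp in RIP140-null CMs, and the shorter one lay wholly inside the longer. The KO-only region, chr6:5488660-5492588, was 3929 bp wide, the widest of the 6, and began 3721 bp into the gene, 711 bp from the control region. It was merged from 3 single-replicate peaks. The log2 ratio of Pdk4, 0.52 in the window, was 1.16 in the gene body alone, 0.12 with 20 kb on each side and 0.0028 by nearest start. The KO-only region holds 2 FOXO matches and 1 E-box, and none of the ERR, PPAR, MEF2 or glucocorticoid receptor (GR) consensus. The FOXO matches are shown because no other region of 1 list held more than 1.
Pdk4, chr6:5491169-5491275, minus strand: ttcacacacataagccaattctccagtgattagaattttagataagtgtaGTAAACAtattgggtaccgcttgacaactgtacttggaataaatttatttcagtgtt
Pdk4, chr6:5490748-5490854, minus strand: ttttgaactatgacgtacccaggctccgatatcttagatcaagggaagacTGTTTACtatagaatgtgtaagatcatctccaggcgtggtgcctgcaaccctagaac
A FOXO match is common at this length: it was present in the central 3929 bp of 46.1% of the 11639 regions of RIP140-null CMs at least that wide, and an E-box in 40.5%. The ERR match of Pdk4 lay in the promoter region of both lists, 1779 bp into the gene, outside masked repeats. It is shown as the reverse complement of the consensus, as it reads on the gene's strand.
Pdk4, chr6:5494475-5494583, minus strand: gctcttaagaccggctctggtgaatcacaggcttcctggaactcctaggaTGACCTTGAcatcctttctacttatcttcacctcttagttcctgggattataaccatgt

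Pdk2 (chr11:95026258-95041354, minus strand, ENSMUSG00000038967), the other kinase, had 2 regions in each list. The promoter region measured 3279 bp in control and 4606 bp in RIP140-null CMs and extended further into the gene in the latter (1820 and 3141 bp past the gene start). The intronic region measured 2206 and 1524 bp. The window as a whole was covered over 5485 and 6130 bp (log2 0.16, at the 58.8th percentile of all genes).

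The pyruvate carrier genes differed from each other. Mpc1 (chr17:8282904-8297661, plus strand, ENSMUSG00000023861) had 1 region in each list, of 6255 bp in control and 6097 bp in RIP140-null CMs, and 95.3% of the control cover was also covered in RIP140-null CMs. Among the 10 genes it had the ratio nearest to 0 (log2 -0.04). An ERR match lay 34 bp upstream of its first GENCODE start, the closest to a start of any ERR match at the 10 genes, in sequence masked as a repeat.
Mpc1, chr17:8282815-8282903, plus strand: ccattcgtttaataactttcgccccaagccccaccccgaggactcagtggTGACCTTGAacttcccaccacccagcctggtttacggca
Mpc2 (chr1:165460637-165481214, plus strand, ENSMUSG00000026568) was covered over 10796 bp in control and 15016 bp in RIP140-null CMs. Its promoter region also covers a start of Dcaf6, and the 7888 bp of this region in control CMs corresponded to 2 regions of 1536 and 7599 bp in RIP140-null CMs. The intronic loci were longer in RIP140-null CMs: 1151 and 2360 bp at the first (log2 1.04, the highest of the 24 loci), and 1757 and 2619 bp at the next, where 2 control regions corresponded to 1. The KO-only region, chr1:165466824-165468038, was 1215 bp wide and lay in an intron, 736 bp from the nearest control region. It covered a start of another annotated gene, Gm37860, and was found in exactly 2 of 3 replicates. The log2 ratio of Mpc2, 0.48 in the window, was 0.73 in the gene body alone and 3.32 by nearest start.

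Over the 24 loci with regions of both lists, 14 were longer and 10 were shorter in RIP140-null CMs, with a median log2 ratio of 0.06. Loci were not counted over the whole lists, so these counts have no background beside them. The median width of the 6 KO-only regions was 1873.5 bp, beside 1279 bp for all KO-only regions, and lay 711 to 4916 bp from the nearest control region, beside a median of 4989 bp for all. Of the 6, 3 were made of 2 single-replicate peaks, as were both control-only regions, and the share of regions so made was 87.8% over all KO-only and 94.3% over all control-only regions.

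ERR, MEF2, FOXO and E-box matches were counted on both strands in every region, in full, together with those of PPAR and GR. In RIP140-null CMs, the 34 regions held 12 ERR matches in 158860 bp, which is 7.55 per 100 kb (exact Poisson interval 3.9 to 13.2), against 3.36 per 100 kb over the whole list. In control CMs, the 31 regions held 9 (6.3 per 100 kb, 2.88 to 12), against 3.27. The intervals cover counting error only, and no test was made. The matches lay at 6 genes in either list, Slc2a4, Hk1, Hk2, Pdk4, Mpc1 and Mpc2, and 8 of the 12 lay in sequence masked as repeats, which left Slc2a4, Hk1 and Pdk4 with a match outside them. No share of masked matches over the whole list stands beside this. Matches were uneven over the genes: in RIP140-null CMs, the Hk1 region of 17567 bp alone held 3 of the 12 ERR matches and 6 of the 35 E-boxes. FOXO matches stood at 15.1 per 100 kb at the 10 genes and 16 over the list of RIP140-null CMs, and E-boxes at 22 (15.3 to 30.6) and 14.3. MEF2 matches stood at 5.04 per 100 kb (2.17 to 9.92) and 3.61 over the list. A PPAR match, the direct repeat spaced by 1 base, was found in 0 regions of the 10 genes. A GR match was found in 1 shared locus, chr6:82771254-82771268 in Hk2. Within the central 200 bp of the 8 regions of 1 list, 0 held a match of any of the 6, where the share over the list of RIP140-null CMs was 0.674% for ERR, 1.05% for MEF2, 3.12% for FOXO and 3.07% for the E-box. Searched in full, 4 of the 8 held a match: those of Hk1 (2), Pfkm and Pdk4. Regions of RIP140-null CMs were searched in central parts as long as the 6 KO-only regions (1215 to 3929 bp). There, from the shortest to the longest, 16.4% to 40.5% held an E-box, 17.1% to 46.1% a FOXO match and 3.93% to 12.2% an ERR match.

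RefSeq gave 15 promoters for 9 of the 10 genes (250 bases before to 50 after a start, GRCm38.p6), and Slc2a4 was the other. Of these, 13 were covered in full in both lists, the upstream one of Hk1 was covered in neither, and that of Slc2a1 was covered over 224 of 300 bp in control and all 300 bp in RIP140-null CMs. The E-box was found in 2 of the 15, at 1 promoter of Pdk2 and the first of Pfkm, and in 7.15% of the 32851 promoters in the reference. ERR, MEF2, FOXO, PPAR and GR matches were found in 0 of the 15. The RefSeq promoters of Mpc1 (chr17:8283537-8283836 and chr17:8284204-8284503) lie downstream of its first GENCODE start, so they do not include the ERR match of this gene. The shares over all promoters were 0.423% for ERR, 0.557% for MEF2 and 3.65% for FOXO.

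The other genes of the same route were similar to the 10 in median ratio. Of 45 further genes of glucose uptake, glycolysis, lactate handling and pyruvate oxidation, 42 had a region and 40 were covered in both lists, 29 longer and 11 shorter in RIP140-null CMs (median log2 0.20). KO-only regions lay at 12 of the 42 (28.6%, beside 29.4% of all genes with a region) and control-only regions at 13 (31%, beside 35.3%). Of their regions, 15 of 108 were KO-only (13.9%, beside 21.5% of the list) and 23 of 126 were control-only (18.3%, beside 29.5%). Control-only regions outnumbered KO-only ones at these genes, whereas at the 10 genes the counts were 2 and 6. Both region shares of the further genes lie within the intervals of the 10 (8.35% to 33.5% KO-only, 1.79% to 20.7% control-only). The difference in counts was not tested, and the 10 genes were chosen with earlier results of these data known. At least 1.5-fold more cover was found at 7 of 40 (17.5%, near the 16.3% of all genes): the glucose transporters Slc2a8 (2.07-fold) and Slc2a12 (1.5-fold), the glycolytic enzymes Aldoa (1.79-fold), Pgk1 (1.59-fold) and Pfkl (1.55-fold), the lactate transporter chaperone Bsg (1.54-fold) and Pdpr (1.63-fold), a regulatory subunit of pyruvate dehydrogenase phosphatase. Dld, the dihydrolipoamide dehydrogenase subunit, was the sole gene at least 1.5-fold shorter (4177 and 1794 bp). Of the glycolytic enzymes, a group that also takes in regulators, 16 of 20 covered genes were longer in RIP140-null CMs, beside 57.1% of all genes. In the other groups, 3 of 6 covered genes of glucose uptake, 2 of 3 of lactate handling and 1 of 1 hexokinases were longer. For the pyruvate dehydrogenase complex and its regulators it was 7 of 10. Pdk3, another kinase of pyruvate dehydrogenase, had 1252 bp in control and 0 bp in RIP140-null CMs, and the lactate exporter Slc16a3 had 674 bp in RIP140-null CMs and 0 bp in control CMs. For comparison, 15 genes of fatty acid uptake and oxidation had a median log2 ratio of 0.24 (10 longer, 5 shorter), and 16 genes of the tricarboxylic acid cycle had 0.01 (8 longer, 8 shorter). At least 1.5-fold more cover was found at 2 of the 15 and 1 of the 16, and at least 1.5-fold less at 0 of either. No test separates these lists from each other.

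**Figure D5:**
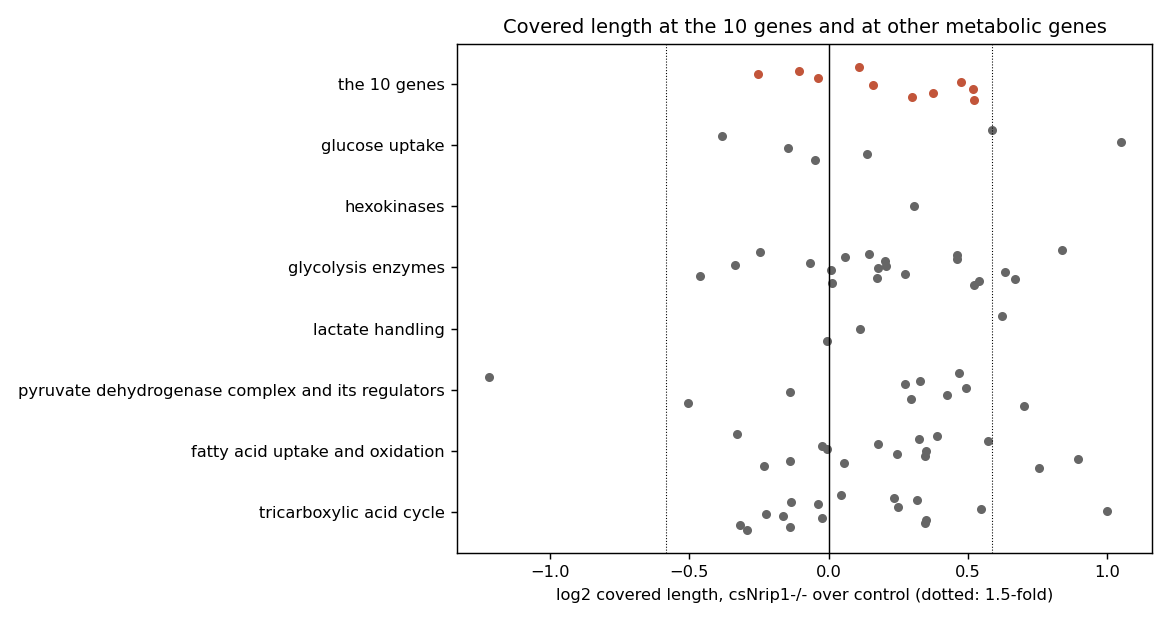
Log2 ratio of covered length (csNrip1-/- over control) of each gene covered in both lists, by role; each point is a gene, dotted lines mark 1.5-fold. The 10 genes (red) lie between -0.25 and 0.52. Among the others, 7 glucose and pyruvate genes, 2 fatty acid genes and 1 tricarboxylic acid cycle gene lie at or past the right-hand dotted line. Dld lies past the left-hand one.

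As a check of the genotypes, the last exon of Nrip1, which carries the coding sequence (7616 bp), was covered over 2904 bp in control and 0 bp in RIP140-null CMs. All 9 CM markers examined (such as Myh6 and Tnnt2) had a covered promoter in both lists, and 14.1% of their windows was covered in control and 16.9% in RIP140-null CMs (154163 and 185832 bp). Endothelial markers were also marked, with regions at 7 of 7 genes in both lists, a covered promoter at 7 in control CMs and 6 in RIP140-null CMs, and 22.2% and 24.1% of their windows covered. Fibroblast markers had regions at 2 and 1 of 6 and a covered promoter at 1 and 0, with 0.676% and 0.361% of windows covered. None lay at Col1a2, Dcn, Postn and Tcf21. Macrophage markers had regions at 2 of 6 in either list (5.57% and 7.51% of windows), with none at Ptprc, Csf1r, Adgre1 and C1qa. A promoter was covered at 0 of these 6 in either list. Mural cell markers had regions, and covered promoters, at 2 and 3 of 5 (6.57% and 9.75% of windows), with none at Rgs5 and Pdgfrb. Slc2a1 and other genes of the route are also used by endothelial cells, and the part of such cells in the values above was not tested.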

How the data were processed

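The data are H3K27ac CUT&RUN region lists of RIP140-null and control CMs. Per the study's methods and the submitters' notes, alignment by the authors was to GRCm38 (Bowtie2 2.4.2), duplicate reads were dropped (SAMtools), and HOMER 4.11.1 called regions in single replicates over IgG. Calls of a genotype were merged, and regions found in at least 2 of 3 replicates were kept. The authors deposited 1 list per genotype with positions in bp, region names and a score. The deposited score was the same for every region and was not used. The number that ends each region's name was read as the number of single-replicate peaks merged into it, which is at least 2 in both lists. Depth is unknown, and Wilson and Poisson intervals cover counting error only.

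Starts were read as 0-based and are printed as 1-based positions. Only chromosomes 1 to 19, X and Y were used, and 21 control and 14 KO regions lay elsewhere. A region was shared if it overlapped the other list by at least 1 bp. Windows were gene bodies of GENCODE M21 extended by 5 kb on each side, and covered length was clipped to them. The background was the 24748 of 55413 genes whose window held a region. Bases are from GRCm38.p6, where lower case in the reference was read as masked repeats, and promoters are from RefSeq. Consensus matches were exact and on both strands (ERR, FOXO and E-box as spelled in the text, and PPAR, MEF2 and GR by name). Stretches with a match are shown with 50 bases on each side, cut at the gene start.

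The members and the gene lists were chosen with earlier results of these data known. All 10 members are named, and other genes of the pathway are named where their covered length differed by at least 1.5-fold or was 0 in 1 list. Alternatives changed the overlap rule, the window, the minimum width, the number of regions and the promoter limits. Keeping regions of 3 or more subpeaks was added after seeing the data, as was the split into shared regions and regions of 1 list. Overlap, cover and matches were tested on simulated data. Calculations used Python 3.11.15, SciPy 1.17.1, pysam 0.24.0 and matplotlib 3.10.9.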

Additional observations from a re-analysis of the deposited data

How the results depend on the processing

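Counts of regions of 1 list depended on the overlap rule and the window. Shares over all regions or genes were set beside the main rule alone, so the counts under alternatives have no background beside them. With a reciprocal overlap of at least 50%, 13 regions were KO-only and 10 were control-only. With gaps of up to 1000 bp counted as shared, 4 were KO-only and 1 was control-only, since the regions of Pdk4, Mpc2 and Ldhb then had a partner. With equal numbers of the widest regions, 1 was control-only. Among regions of 3 or more subpeaks, 3 were KO-only and 0 were control-only. In gene bodies without extension, 0 regions were control-only and 2 genes were at least 1.5-fold longer in RIP140-null CMs. With 20 kb on each side these counts were 5 and 1, and with regions assigned to the nearest start they were 4 and 3. Without clipping to the window, 1 gene was at least 1.5-fold longer. Motif matches were found in 4 of the 8 regions of 1 list when searched in full. The number of genes at least 1.5-fold shorter was 0 under all alternatives run for it, and the median log2 ratio lay between 0.15 and 0.23. Of 60 log2 ratios of single genes under alternatives, 21 moved by more than 0.1 and 6 had the other sign, namely Slc2a4 (-0.34 in the gene body alone, -0.23 by nearest start), Slc2a1 (-0.47) and Hk2 (1.84) by nearest start, and Mpc1 (0.04 in the gene body alone, 0.06 with 20 kb). The causes of these moves were not tested. No paired analysis was possible because the lists hold no values per replicate, and leaving out a replicate could not be run for the same reason.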
